A study of Homo sapiens with 11 samples.

Results

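Bortezomib (BTZ) was given at 7 nM for 24 h to CEM/WT, the parental CCRF-CEM line, and the RNA of these cells, CEM/WT_BTZ (3 samples), was set against that of CEM/WT without drug (2 samples). The samples were chosen by their titles, and these 5 of the series' 11 samples are the comparison, over 17372 genes with a usable probe. CCRF-CEM is an established human T lymphoblast line of leukaemic origin, kept in RPMI with fetal calf serum, and every sample came from that 1 line. Agilent arrays of the whole human genome read the RNA, and 2 CEM/WT_BTZ samples carried Cy3 and 1 carried Cy5, and 1 CEM/WT sample carried each dye. The other 6 samples were of the sublines CEM/BTZ7 (3 samples, in 7 nM), CEM/BTZ100 and CEM/BTZ200 (1 each, in 100 and 200 nM) and CEM/BTZ-200 (1, without drug). They shared in the normalization, the probe filter and the choice of the brightest probe of each gene. Of them only CEM/BTZ7 helped to estimate the spread and the dye effect, since a group of 1 sample leaves no residual. Whether samples of 1 group came from separate cultures is not stated, and the p-values therefore cover only how far these samples varied, which may be technical variation. The question of the comparison was how sensitive parental cells responded to acute exposure to the drug.

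The proteasome degrades proteins that carry ubiquitin chains. Its 20S core holds the catalytic sites in a barrel of alpha and beta subunits, and the 19S regulatory particle caps it, recognises ubiquitin and unfolds the substrate. Bortezomib binds chiefly the beta 5 subunit, PSMB5, and proteins that would have been degraded then accumulate. Cells are known to answer such a block through heat shock factor 1 (HSF1), through NFE2L1 and NFE2L2, which bind antioxidant response elements, and through the integrated stress response, in which ATF4 and DDIT3 are made. T lymphoblasts of this stage carry an immature T cell programme with the recombinase RAG1 and RAG2, CD1 molecules and NOTCH1 signalling.

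Levels are given as log2 of the quantile-normalized probe intensity, in which background lay between 2.92 and 3.79 in the 5 samples. A gene was called where limma's moderated test gave an adjusted p (Benjamini-Hochberg over all genes) under 0.05. In all, 2692 genes (15.5%) were called, of which 1127 (6.49%) were higher and 1565 (9.01%) lower in CEM/WT_BTZ. The counts given below for each gene list are to be set beside these shares. Past 2-fold, 819 genes (4.71%) were higher and 1275 (7.34%) lower, and 24 and 11 genes passed 16-fold. The samples of the groups did not overlap, with CEM/WT_BTZ above CEM/WT, in 21.3% of genes and with CEM/WT_BTZ below in 25%. Groups that stand apart are therefore common, which applies wherever this is said of a gene below. The count depended on the CEM/WT samples, since 153 genes were called without CEM/WT replicate 1 and 407 without replicate 2, against 1234, 1668 and 2434 without CEM/WT_BTZ replicates 1, 2 and 3. It was 1409 without CEM/BTZ7 replicate 2. A fit on the 5 samples alone called 923 genes, of which 370 higher (2.13% of all genes) and 503 lower (2.9%) were called in both fits, and the replicate number as a block raised the count to 6518. All of the 2692 genes kept their sign with the block, and 2684 of the 2691 that could be fitted in the 5 samples alone kept it there. Samples of CEM/WT_BTZ correlated with each other at 0.9699 to 0.9812 over genes and the CEM/WT pair at 0.9836, against 0.9507 to 0.9639 between groups, and between 78.3% and 86.4% of probes lay above background.

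**Figure D1:**
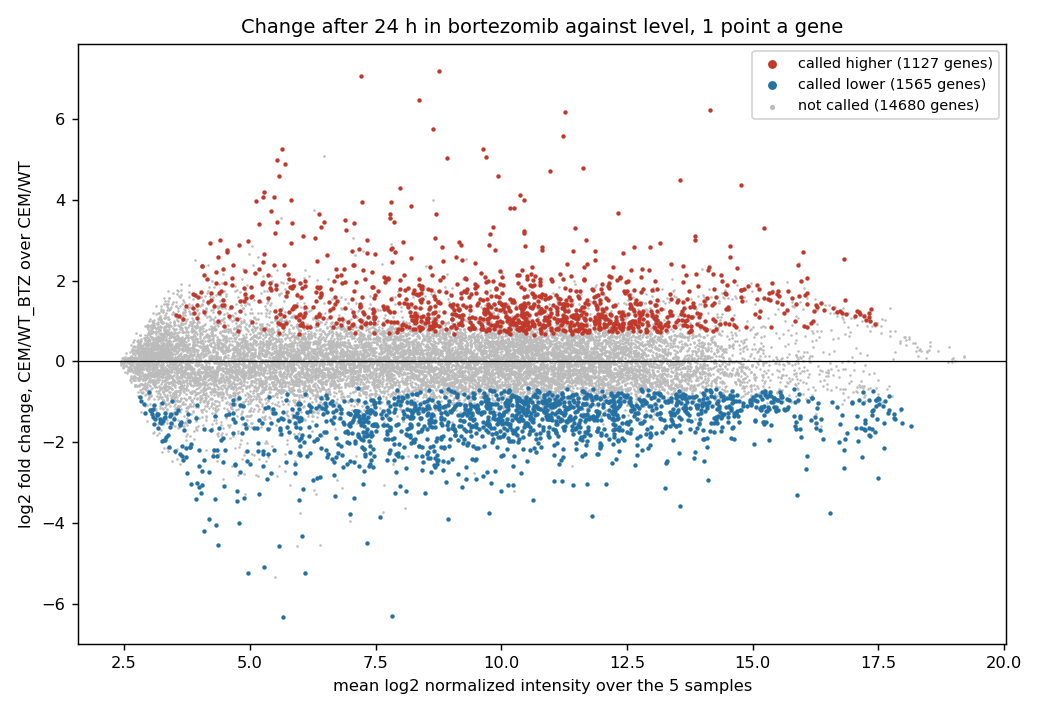
Log2 fold change of CEM/WT_BTZ over CEM/WT (vertical axis) against the mean log2 normalized intensity of the 5 samples (horizontal axis), 1 point for each of the 17372 genes. The 1127 genes called higher (red) and the 1565 called lower (blue) are spread over the range of levels. Many of the largest changes lie at low and middle levels, but those of HSPA1A (6.22) and ADA (-3.74) lie at higher ones.

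All 10 T lymphoblast markers, among them CD3E, CD7, LCK and RAG1, lay above background in each of the 5 samples, but so did all 5 B cell, 8 erythroid and megakaryocyte and 5 epithelial markers, and presence above background therefore does not tell the labelled cell type from others here. The summed level of the T lymphoblast markers on the linear scale ranged from 40300 to 52830 in CEM/WT_BTZ, against 91840 to 128200 in CEM/WT, and 6 of the 10 were called lower, or 1 without either CEM/WT replicate and 1 in the fit on 5 samples. Among markers of other cells, the 10 myeloid genes summed to 6962 to 10880 in CEM/WT_BTZ and 16480 to 28070 in CEM/WT, with 4 called lower. The sum of 8 erythroid and megakaryocyte genes ranged from 5758 to 9984 in CEM/WT_BTZ and from 3492 to 4071 in CEM/WT (1 called higher, PPBP), and that of 8 fibroblast and endothelial genes from 664.5 to 969.4 in CEM/WT_BTZ and from 1852 to 2094 in CEM/WT (1 called lower, PECAM1). Neither the 5 B cell markers (17390 to 36950 in CEM/WT_BTZ, 9821 to 13410 in CEM/WT) nor the 5 epithelial markers (5655 to 8219 in CEM/WT_BTZ, 3205 to 3621 in CEM/WT) held a gene called by limma (at an unadjusted p under 0.05, 1 B cell marker was higher and 1 lower, and no epithelial one), though with the replicate number as a block 2 B cell markers were called higher and 1 lower and 1 epithelial marker higher, and 1 B cell marker was called each way in the log2 table deposited by the authors (the value table). The part of other cells in the results below was not tested, and in bulk RNA fewer cells of a type and less RNA per cell cannot be told apart.

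Most genes of the 19S particle were higher. Of the 16 measured 19S genes, 13 (81.2%, against 6.49% of all genes) were higher in CEM/WT_BTZ and none was lower. Their median was a log2 fold change of 1.35, against -0.02 over all genes. The ATPase subunit PSMC2, which helps to unfold substrates, had levels of 15.25, 15.14 and 15.18 in CEM/WT_BTZ and 13.31 and 13.02 in CEM/WT (log2 fold change 1.99 ± 0.18 SE, adjusted p = 0.00345). The lid subunit PSMD12 had 14.39, 14.31 and 14.47 in CEM/WT_BTZ and 12.51 and 12.40 in CEM/WT (1.96 ± 0.19, adjusted p = 0.00356), and PSMD14, the deubiquitinase of the lid, had 16.50, 16.14 and 16.53 in CEM/WT_BTZ and 14.65 and 14.68 in CEM/WT (1.74 ± 0.19, adjusted p = 0.00525). In each of these 3 genes all CEM/WT_BTZ samples stood above both CEM/WT samples, as they did in 21.3% of all genes. The ubiquitin receptor ADRM1 changed by 1.58 and the scaffold subunits PSMD2 and PSMD1 by 1.52 and 1.20, while PSMC3 (0.75), PSMD8 (0.30) and SEM1 (0.16) were not called. The median over the 19S genes was 1.37, 1.11 and 1.55 in the 3 CEM/WT_BTZ samples taken singly. Without CEM/WT replicate 1 only 1 gene of the list was called, PSMD12, and without replicate 2 there were 2, PSMC2 and PSMD12, with PSMC2 at an adjusted p of 0.0501 and PSMD14 at 0.0676 without replicate 1, while the median stayed between 1.20 and 1.5 over all settings.

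Of the 14 measured genes of the 20S core 4 (28.6%) were called higher, PSMA1 (1.18 ± 0.18, adjusted p = 0.0109), PSMB2 (0.90), PSMB5 (0.86) and PSMB7 (0.84), with a list median of 0.66. PSMB5, the main target of the drug, had levels of 14.97, 15.10 and 15.02 in CEM/WT_BTZ, against 14.23 and 14.05 in CEM/WT (log2 fold change 0.86 ± 0.18 SE, adjusted p = 0.0289). On its brightest probe PSMB1 carried 16.94, 17.03 and 17.28 in CEM/WT_BTZ and 16.29 and 16.66 in CEM/WT, which did not pass the test (adjusted p = 0.0667, or 0.0277 with the replicate as a block). A dimmer PSMB1 probe gave 0.97 (adjusted p = 0.0313 in a fit of each probe on its own). In both of these beta subunits the groups did not overlap, which held for 21.3% of all genes in that direction. The alpha subunit PSMA6 went the other way, with 15.80, 16.01 and 16.70 in CEM/WT_BTZ and 17.18 and 17.27 in CEM/WT (-1.0 ± 0.24, adjusted p = 0.0393). The block called 9 of the 14 higher, and without either CEM/WT replicate none was called higher (PSMB5 at an adjusted p of 0.197 without replicate 1 and 0.136 without replicate 2, PSMA6 at 0.28 and 0.113).

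Most genes of the immunoproteasome and its PA28 activator were lower. PSMB8, PSMB9 and PSMB10 are the inducible catalytic subunits that replace the constitutive ones in lymphoid cells, and PSME1 and PSME2 form PA28. Of these 5 genes 4 were called lower (9.01% of all genes were) and the list median was -1.11. PSMB9 had 11.92, 11.53 and 11.44 in CEM/WT_BTZ and 12.99 and 13.12 in CEM/WT (-1.43 ± 0.21, adjusted p = 0.00993). PSMB8 had 9.99, 10.90 and 10.86 in CEM/WT_BTZ and 11.97 and 12.54 in CEM/WT (-1.63 ± 0.39, adjusted p = 0.0392), so that the groups stood apart in both genes. PSMB10, with 12.79, 13.61 and 12.88 in CEM/WT_BTZ and 13.51 and 14.07 in CEM/WT, overlapped between groups and was not called (adjusted p = 0.259, or 0.02 with the block). None of the 5 was called without either CEM/WT replicate or in the fit on 5 samples alone, where PSMB9 had an adjusted p of 0.0535, and the median stayed between -1.24 and -1.01 in every setting. TAP1, which carries peptides into the ER for class I molecules, was also lower (-1.15 ± 0.17, adjusted p = 0.0101), with 11.81, 11.85 and 11.85 in CEM/WT_BTZ and 12.91 and 13.07 in CEM/WT. So was NLRC5, the class I transactivator (-1.42 ± 0.22, adjusted p = 0.0104), though 1 of its 2 other probes gave 0.07 (adjusted p = 0.922 in a fit of each probe on its own), whereas HLA-B (0.66), HLA-C (0.63) and B2M (-0.31) were not called. In the class I antigen presentation list these 2 of 11 genes were called lower and none higher (median -0.26, 5 of them with positive changes), with 3 higher and 4 lower with the block, 3 and 2 in the value table, and a median of 0.45 with the mean of probes. Neither was called without CEM/WT replicate 1 (adjusted p = 0.0878 for TAP1 and 0.113 for NLRC5).

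**Figure D2:**
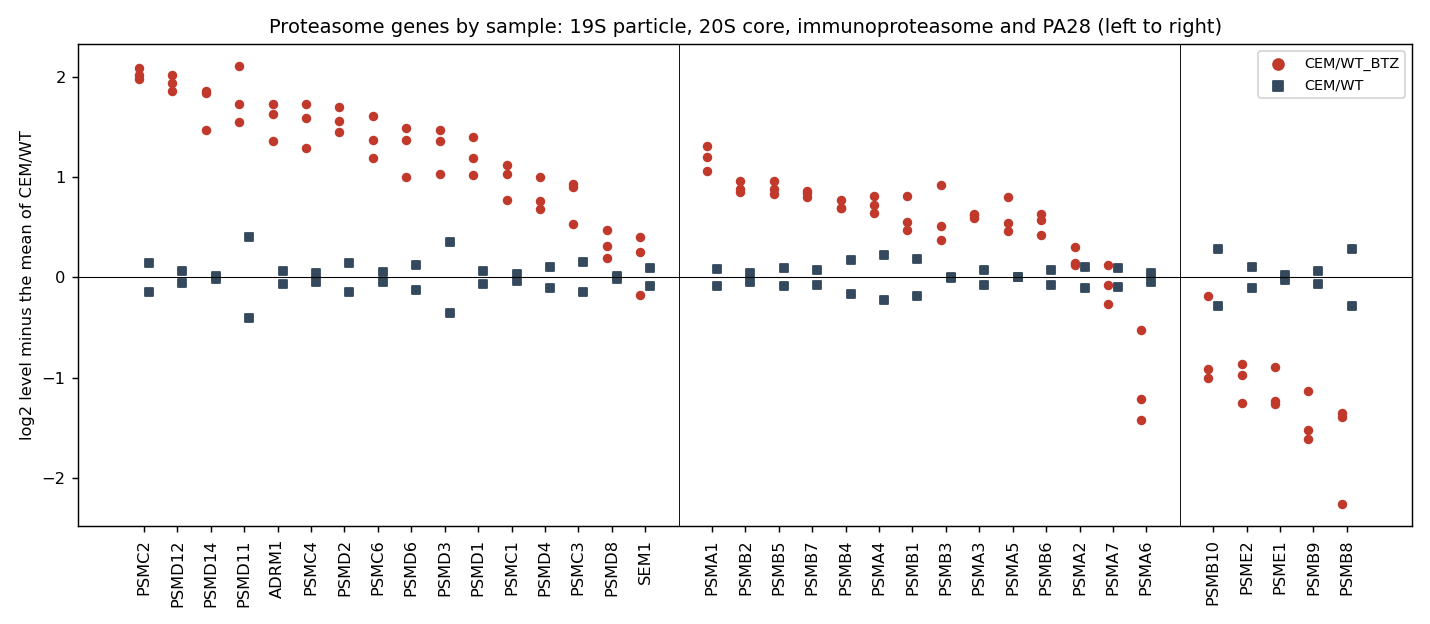
Level of each proteasome gene in each sample as log2 minus the mean of the CEM/WT samples (vertical axis), with CEM/WT_BTZ as red circles and CEM/WT as dark squares, for the 16 genes of the 19S particle, the 14 of the 20S core and the 5 of the immunoproteasome and PA28. The 13 called 19S genes lie above both CEM/WT squares in all 3 CEM/WT_BTZ samples, PSMA6 and 4 of the last 5 genes lie below them, and most 20S genes lie nearer to the CEM/WT squares.

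Genes that act before the proteasome on ubiquitylated proteins rose in part. Of 18 genes for ubiquitin, the VCP segregase and deubiquitinases 7 (38.9%, against 6.49% of all genes) were higher and none lower (median 0.31), though the block called 7 higher and 4 lower. ZFAND2A and ZFAND5, zinc finger proteins that bind the proteasome under stress, changed by 3.67 ± 0.28 (adjusted p = 0.00209) and 2.36 ± 0.19 (adjusted p = 0.00229). ZFAND2A had 13.20, 13.60 and 14.44 in CEM/WT_BTZ and 9.76 and 10.64 in CEM/WT, and all 5 probes of ZFAND5 pointed up. VCP itself (0.95) and its cofactors NSFL1C (1.82), NPLOC4 (1.46) and UFD1 (1.01) were called, as was the proteasome-bound deubiquitinase USP14 (1.21), whereas UBB (0.47) and the E1 enzyme UBA1 (-0.57) were not. Leaving out 1 sample at a time gave 2 to 6 genes called higher, 2 without either CEM/WT replicate, where NSFL1C had an adjusted p of 0.0804 and 0.0623.

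In the autophagy list, 8 of 30 genes (26.7%, against 6.49% of all genes) were higher and 1, ATG10, lower (median 0.45), though the block called 4 lower. GABARAPL1, an ATG8-family protein of the autophagosome membrane, had 13.63, 13.28 and 13.46 in CEM/WT_BTZ and 7.96 and 7.77 in CEM/WT (log2 fold change 5.57 ± 0.21 SE, 47.5-fold, adjusted p = 0.00122). GABARAPL3, an expressed copy of that gene, followed it (5.02), and because the sequences are near-identical its probe may read GABARAPL1. MAP1LC3B, a second ATG8-family gene, had 13.48, 13.46 and 13.51 in CEM/WT_BTZ and 11.13 and 11.35 in CEM/WT (2.27 ± 0.18, adjusted p = 0.00229). SQSTM1, the p62 receptor that links ubiquitylated cargo to autophagosomes, had 14.23, 14.28 and 14.44 in CEM/WT_BTZ and 11.32 and 11.47 in CEM/WT (2.93 ± 0.18, adjusted p = 0.00145). The 2 probes of SQSTM1 disagreed, and the other one, at -0.65 (adjusted p = 0.525 in a fit of each probe on its own), became the gene's brightest and gave -0.46 without CEM/WT_BTZ replicate 2 and -0.42 without replicate 3. The kinase ULK1 (1.41) and the receptors TAX1BP1 (1.33) and OPTN (1.23) were called, and BECN1 (0.31), ATG7 (-0.48) and TFEB (-0.45) were not. The block called 14 of the 30 higher, and leaving out 1 sample at a time gave 3 to 9, 3 of them without CEM/WT_BTZ replicate 2 or either CEM/WT replicate.

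Heat shock genes were among the largest rises. HSP70 and HSP110 proteins fold and refold clients, HSP40 proteins bring clients to them, and HSF1 drives many of these genes from heat shock elements. The inducible HSP70 gene HSPA1A had 17.06, 16.29 and 16.63 in CEM/WT_BTZ and 10.50 and 10.24 in CEM/WT (log2 fold change 6.22 ± 0.34 SE, adjusted p = 0.00122), and its 3 probes gave 6.21 to 6.39. HSPA1A and HSPA1B are near-identical, so its probes cannot be taken to read only 1 of them. HSPA6, an HSP70 gene that is nearly silent without stress, had 13.28, 13.54 and 14.20 in CEM/WT_BTZ and 7.58 and 7.74 in CEM/WT, 2 groups far apart. HSPH1, an HSP110, had 16.73, 16.34 and 16.57 in CEM/WT_BTZ and 13.23 and 13.22 in CEM/WT (3.30 ± 0.22, adjusted p = 0.00145). The constitutive HSPA8 had 17.80, 17.44 and 18.28 in CEM/WT_BTZ and 18.35 and 17.14 in CEM/WT, where the groups overlapped (0.06, adjusted p = 0.95), though 2 dimmer probes of the gene gave 1.91 and 1.20 (adjusted p = 0.038 and 0.0237 in the fit over probes). In all, 5 of 12 HSP70 and HSP110 genes (41.7%) and 8 of 13 HSP40 genes (61.5%) were higher, against 6.49% of all genes, and none was lower. The medians were 1.00 and 1.17. DNAJB4 had 9.55, 9.14 and 9.70 in CEM/WT_BTZ and 6.43 and 4.26 in CEM/WT (3.95 ± 0.57, adjusted p = 0.00931), with the CEM/WT samples far from each other. DNAJB2 changed by 2.83 ± 0.31 (adjusted p = 0.00488), and DNAJA4 (2.80), DNAJB6 (2.26) and DNAJA1 (1.42) were also called, whereas DNAJA3 (-0.51), a mitochondrial member, was not. Without CEM/WT replicate 1, 3 of the 12 and 2 of the 13 were called higher, with adjusted p = 0.0637 for DNAJB2 and 0.0501 for DNAJB4, and without replicate 2 there were 3 and 3 (DNAJB4 at 0.0633).

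In the HSP90 list 1 of 11 genes (9.09%, against 6.49% of all genes) was called higher, with 4 in the value table and 5 with the block. CHORDC1, a cochaperone of HSP90, had 13.33, 12.65 and 13.49 in CEM/WT_BTZ and 11.14 and 10.50 in CEM/WT (2.33 ± 0.37, adjusted p = 0.0114). It was the 1 gene called higher, and the cochaperone FKBP5 was lower (-1.47 ± 0.28, adjusted p = 0.02, or 0.187 without CEM/WT replicate 1). HSP90AB1 had 16.32, 15.64 and 15.85 in CEM/WT_BTZ and 15.16 and 14.30 in CEM/WT, and HSP90AA1 18.32, 17.85 and 18.70 in CEM/WT_BTZ and 17.64 and 16.14 in CEM/WT. The groups did not overlap in either gene, yet neither was called, and the 2 CEM/WT samples lay far apart. HSF1 mRNA overlapped between the groups, with 14.33, 14.31 and 14.65 in CEM/WT_BTZ and 14.38 and 14.37 in CEM/WT (adjusted p = 0.824). None of 10 chaperonin genes was called by limma in either direction (median -0.01, with 1 higher at an unadjusted p under 0.05, and 3 called higher in the authors' value table). CHORDC1 was not called without CEM/WT replicate 1 (adjusted p = 0.0731) or replicate 2 (0.0833). Among small heat shock and BAG genes, 3 of 15 (20%, against 6.49% of all genes) were higher (CLU, BAG3 and BAG2) and BAG1 was lower. BAG3, which couples HSP70 to selective autophagy, had 10.89, 10.53 and 11.46 in CEM/WT_BTZ and 8.27 and 8.23 in CEM/WT (2.75 ± 0.26, adjusted p = 0.00354). CLU, the secreted chaperone clusterin, had the largest estimated rise (7.18 ± 0.54), but a second probe gave 0.74 (adjusted p = 0.172 in the fit over probes). CXCL8, which was not above background in CEM/WT, has only a lower bound and cannot be ranked against CLU.

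Promoter windows of 300 bases around each gene's start site, from RefSeq on GRCh38.p14, were searched for the heat shock element, spelled as GAA, TTC and GAA or as TTC, GAA and TTC with 2 bases of any kind between each, on both strands. It occurred in 0.49% of 35116 windows, in 2 of 14 windows of the HSP70 and HSP110 genes, in 2 of 19 of the HSP40 genes, in 3 of 15 of the HSP90 list and in 1 of 12 of the chaperonins, of which none was called. A window that holds the letters is a description and not a site in use. The 3 windows below are shown because they hold the element in 2 called genes and in 1 that was not called, HSP90AB1. HSPA6 is at chr1:161524290-161524589 on the plus strand, CHORDC1 at chr11:90223000-90223299 on the minus strand and HSP90AB1 at chr6:44247693-44247992 on the plus strand, each written 5′ to 3′ along its gene with the element in capitals. In CHORDC1 3 matches overlap and run together.
HSPA6: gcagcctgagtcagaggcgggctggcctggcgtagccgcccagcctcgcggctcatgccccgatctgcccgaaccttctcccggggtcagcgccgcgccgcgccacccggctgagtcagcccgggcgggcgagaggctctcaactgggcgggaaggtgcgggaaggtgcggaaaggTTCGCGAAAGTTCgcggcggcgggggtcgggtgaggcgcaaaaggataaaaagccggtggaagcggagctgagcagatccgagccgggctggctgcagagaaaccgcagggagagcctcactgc
CHORDC1: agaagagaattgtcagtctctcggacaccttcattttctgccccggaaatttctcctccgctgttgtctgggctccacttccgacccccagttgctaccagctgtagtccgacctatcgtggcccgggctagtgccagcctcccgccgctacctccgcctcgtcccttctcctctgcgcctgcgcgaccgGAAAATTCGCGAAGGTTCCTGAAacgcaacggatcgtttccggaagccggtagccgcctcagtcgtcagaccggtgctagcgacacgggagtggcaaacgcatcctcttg
HSP90AB1: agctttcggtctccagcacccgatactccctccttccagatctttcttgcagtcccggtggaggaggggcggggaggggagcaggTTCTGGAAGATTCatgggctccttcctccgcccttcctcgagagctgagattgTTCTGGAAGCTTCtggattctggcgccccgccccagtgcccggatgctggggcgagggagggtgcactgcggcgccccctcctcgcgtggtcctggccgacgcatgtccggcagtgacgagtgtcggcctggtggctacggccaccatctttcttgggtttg
The HSPA6 match begins 74 bases before the start site, the CHORDC1 matches 60, 55 and 50 bases before it, and the HSP90AB1 matches 165 and 112 bases before it.

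Targets of NFE2L2 (NRF2), the regulator of the oxidative stress response, were higher in 8 of 15 cases (53.3%, against 6.49% of all genes) and lower in none (median 1.5). HMOX1, which breaks down haem, had 11.39, 11.34 and 12.40 in CEM/WT_BTZ and 6.65 and 6.75 in CEM/WT (log2 fold change 5.06 ± 0.33 SE, 33.4-fold, adjusted p = 0.00145). The cystine carrier SLC7A11 had 12.18, 11.81 and 11.34 in CEM/WT_BTZ and 7.36 and 6.95 in CEM/WT (4.59 ± 0.30, adjusted p = 0.00145), and PIR, an iron-binding protein of the nucleus, had 14.33, 14.32 and 14.41 in CEM/WT_BTZ and 11.88 and 11.99 in CEM/WT (2.41 ± 0.19, adjusted p = 0.00229). All 3 genes were called in each setting tried, and all CEM/WT_BTZ samples exceeded both CEM/WT samples. GCLM, a subunit of the enzyme that starts glutathione synthesis, changed by 2.41 with 12.47, 12.17 and 12.19 in CEM/WT_BTZ and 9.95 and 9.76 in CEM/WT. FTL (2.39), AKR1C1 (1.83) and GCLC (1.10) were also called, but TXNRD1 (2.03) and NQO1 (1.5), whose CEM/WT samples differed widely, were not, and TXN was at -0.34. CBR3, a carbonyl reductase outside the list, had 7.34, 7.44 and 8.13 in CEM/WT_BTZ and was not above background in CEM/WT (2.84 and 2.76), a rise of at least 22.5-fold (adjusted p = 0.00122). NMRAL2P, a pseudogene, had 11.06, 11.15 and 10.59 in CEM/WT_BTZ and 4.17 and 4.81 in CEM/WT (6.46 ± 0.31, adjusted p = 0.00122). None of 11 metallothionein and zinc genes was called by limma in either direction (median -0.32, with 2 higher and 1 lower at an unadjusted p under 0.05), but the block called 3 higher and 1 lower and 1 was called higher in the value table. Leaving out 1 sample at a time gave 4 to 9 called NRF2 targets, 4 of them without either CEM/WT replicate.

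NFE2L2 mRNA itself was higher, with 12.68, 12.51 and 12.29 in CEM/WT_BTZ and 11.48 and 11.40 in CEM/WT (1.04 ± 0.20, adjusted p = 0.0211), which was lost in the fit on 5 samples (adjusted p = 0.0751) and without either CEM/WT replicate (0.159 and 0.118). A second, dimmer NFE2L2 probe gave -0.24 (adjusted p = 0.753 in a fit of each probe on its own). NFE2L1, which drives proteasome genes when the proteasome is blocked, was read by 4 probes. The brightest lay near the top of the scale (18.49, 18.55 and 18.45 in CEM/WT_BTZ, 18.42 and 18.35 in CEM/WT) and was not called (adjusted p = 0.831), while the other 3 gave 1.42, 1.33 and 1.49 (adjusted p = 0.0325, 0.0122 and 0.00769 in the fit over probes). The antioxidant response element was searched as TGACNNNGC on both strands. It occurred in 13.3% of all windows, in 7 of 19 windows of the 19S genes, in 2 of 14 of the 20S genes and in 6 of 15 of the NRF2 targets. It also occurred in lists with few or no rises, in 4 of 6 windows of the metallothioneins, 3 of 6 of the immunoproteasome and PA28 and 6 of 16 of the p53 targets. PSMD12 (chr17:67366528-67366827 on the minus strand) and GCLM (chr1:93909381-93909680 on the minus strand) are shown as 1 called gene of each kind, with the element in capitals, 165 and 34 bases before the start site. In GCLM the letters lie on the opposite strand.
PSMD12: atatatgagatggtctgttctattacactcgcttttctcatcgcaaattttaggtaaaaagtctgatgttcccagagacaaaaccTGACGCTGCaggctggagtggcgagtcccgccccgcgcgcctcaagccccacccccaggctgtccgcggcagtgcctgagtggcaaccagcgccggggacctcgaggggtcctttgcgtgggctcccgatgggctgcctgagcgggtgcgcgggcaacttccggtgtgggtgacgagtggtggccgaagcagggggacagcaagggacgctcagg
GCLM: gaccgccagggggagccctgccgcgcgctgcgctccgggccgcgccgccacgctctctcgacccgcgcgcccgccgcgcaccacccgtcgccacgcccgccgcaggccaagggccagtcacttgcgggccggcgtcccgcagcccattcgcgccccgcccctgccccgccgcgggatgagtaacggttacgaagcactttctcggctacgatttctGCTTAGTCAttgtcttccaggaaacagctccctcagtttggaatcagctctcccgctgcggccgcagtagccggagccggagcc

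Other large rises had no list of their own. APOBEC3A, a cytidine deaminase of innate immunity, had 8.0, 7.30 and 7.04 in CEM/WT_BTZ and was not above background in CEM/WT (2.79 and 2.76), a rise of at least 19.7-fold (adjusted p = 0.00138). GPAT3, which starts triglyceride synthesis, had 7.57, 7.42 and 7.62 in CEM/WT_BTZ and was likewise at background in CEM/WT (2.46 and 2.66), a rise of at least 20.9-fold (adjusted p = 0.00413, or 0.0636 without CEM/WT replicate 1). CCDC80, a matrix protein, had 7.23, 7.65 and 8.27 in CEM/WT_BTZ and was at background in CEM/WT (2.57 and 2.52), a rise of at least 23.8-fold (adjusted p = 0.00122) on its brightest probe, while its other probe gave -1.27. BFSP1, an intermediate filament protein of the lens, had 9.84, 9.95 and 9.32 in CEM/WT_BTZ and 5.31 and 5.48 in CEM/WT (4.28 ± 0.23, adjusted p = 0.00122), so that all CEM/WT_BTZ samples stood above CEM/WT.

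**Figure D3:**
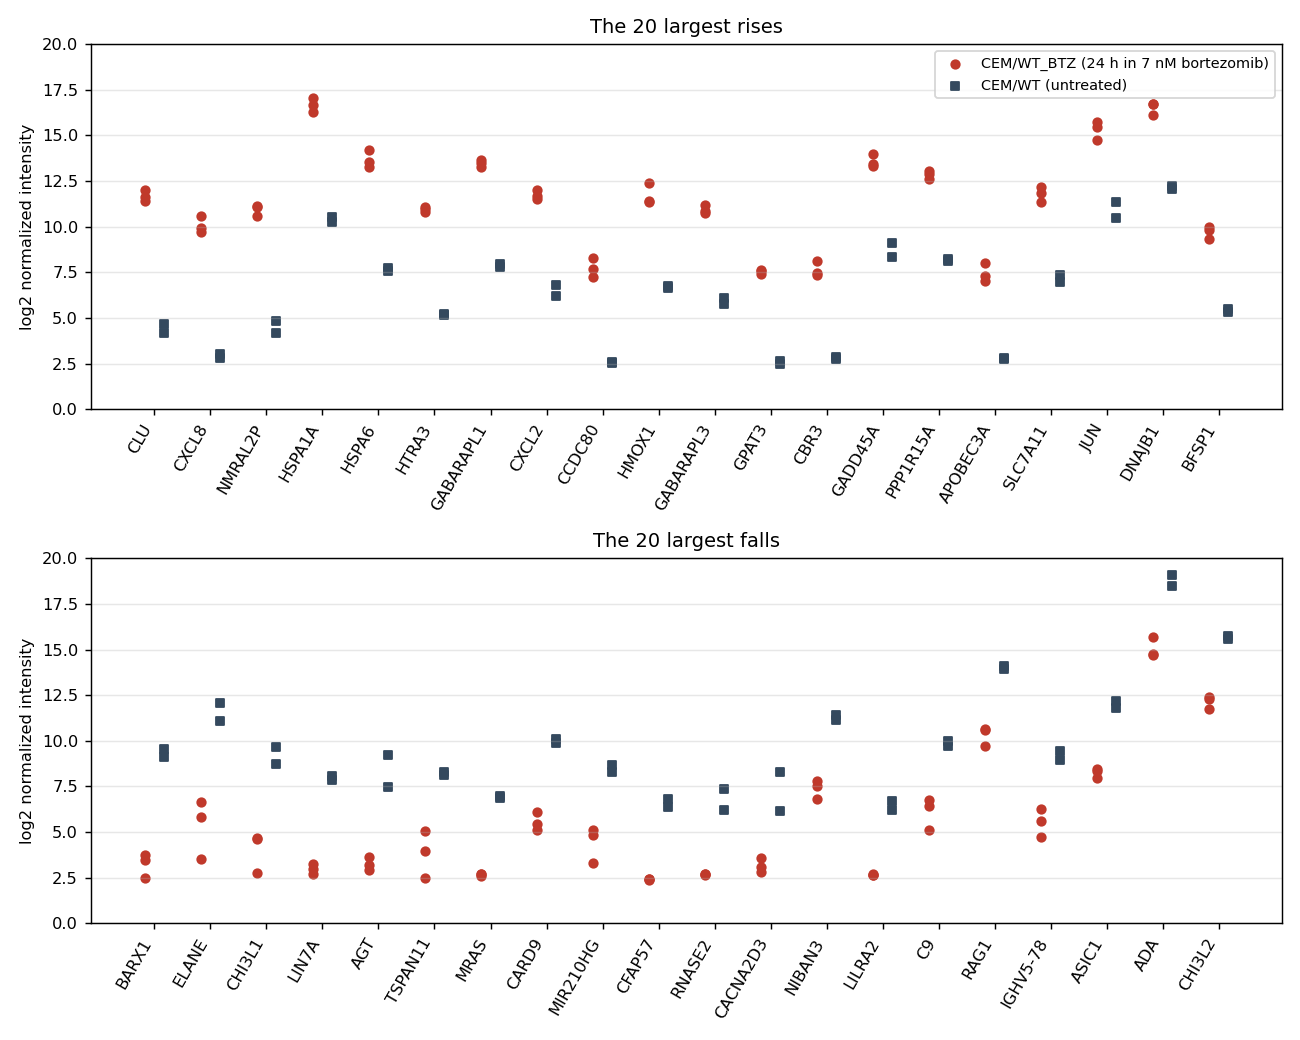
Log2 normalized intensity of the 20 largest rises and the 20 largest falls among called genes, 1 point per sample, with CEM/WT_BTZ as red circles (3 samples) left of CEM/WT as dark squares (2 samples). Genes were chosen with groups that do not overlap. Several of the lowest points, such as CEM/WT for CXCL8 and CEM/WT_BTZ for CFAP57, lie at background.

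In the ATF4 and CHOP arm of the integrated stress response 8 of 17 genes were higher and none lower (median 1.18). ATF4 mRNA had 17.23, 17.30 and 17.21 in CEM/WT_BTZ and 16.43 and 16.52 in CEM/WT, which was not called (0.72 ± 0.26, adjusted p = 0.109). DDIT3 (CHOP), a transcription factor of prolonged stress, had 11.31, 11.96 and 11.98 in CEM/WT_BTZ and 7.61 and 8.39 in CEM/WT, PPP1R15A (GADD34), which restores translation, had 12.89, 13.02 and 12.59 in CEM/WT_BTZ and 8.10 and 8.24 in CEM/WT, and ATF3 had 14.02, 13.81 and 14.38 in CEM/WT_BTZ and 11.18 and 11.38 in CEM/WT. No CEM/WT_BTZ sample of these 3 genes overlapped with CEM/WT, and all 3 were called in every setting. CEBPB (2.59) and CEBPG (1.8), partners of ATF4, were called too, and DDIT4 (0.46) and CHAC1 (-0.20) were not. NUPR1 had 5.14, 5.28 and 5.97 in CEM/WT_BTZ and 8.75 and 9.86 in CEM/WT, where the groups did not overlap and the adjusted p was 0.0532 (0.0207 in the 5 samples alone). Leaving out 1 sample at a time gave 5 to 10 called genes, 5 of them without either CEM/WT replicate.

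Genes for amino acid supply and tRNA charging, many of them known ATF4 targets, were higher in 4 of 28 cases (14.3%, against 6.49% of all genes) and lower in 1, SLC7A3 (median 0.20). Asparagine synthetase (ASNS) had 13.47, 13.55 and 13.67 in CEM/WT_BTZ and 12.01 and 12.10 in CEM/WT (1.46 ± 0.30, adjusted p = 0.0251), which was not called without any 1 of the 5 samples (adjusted p = 0.215 at most, without CEM/WT replicate 1). CTH, which makes cysteine, changed by 1.22, whereas PSAT1 (0.26) and PHGDH (-0.03) were not called. The adjusted p of CTH was 0.084 without CEM/WT replicate 1. The block called 7 of the 28 higher and 3 lower. The C/EBP-ATF response element, searched as TGATGNAAN on both strands, occurred in 3.61% of all windows, in 10 of 30 windows of this list and in 4 of 26 of the ATF4 and CHOP arm. ASNS (chr7:97872359-97872658 on the minus strand) is shown with the element in capitals, 68 bases before the start site.
ASNS: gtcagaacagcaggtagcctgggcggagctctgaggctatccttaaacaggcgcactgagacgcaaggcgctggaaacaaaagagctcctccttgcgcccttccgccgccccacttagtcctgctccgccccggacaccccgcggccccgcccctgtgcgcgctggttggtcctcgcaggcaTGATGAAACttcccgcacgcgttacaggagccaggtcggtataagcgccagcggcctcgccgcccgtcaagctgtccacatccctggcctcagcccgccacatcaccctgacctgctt

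Of 28 genes for ER chaperones and ER-associated degradation 7 (25%, against 6.49% of all genes) were higher and none lower (median 0.61), though the block called 2 lower. HERPUD1, a membrane organiser of that degradation, had 15.88, 15.71 and 15.33 in CEM/WT_BTZ and 13.31 and 13.19 in CEM/WT (2.31 ± 0.21, adjusted p = 0.0034). The ER cochaperone DNAJB9 had 12.43, 12.37 and 11.93 in CEM/WT_BTZ and 10.04 and 10.15 in CEM/WT (2.12 ± 0.20, adjusted p = 0.00363). HSPA5 (BiP), the main HSP70 of the ER, had 13.76, 12.86 and 13.41 in CEM/WT_BTZ and 11.94 and 10.61 in CEM/WT (1.99 ± 0.43, adjusted p = 0.0291), and here the CEM/WT samples differed by more than the CEM/WT_BTZ samples. The ERAD ligase partner SEL1L changed by 1.48, but HYOU1 (0.77), HSP90B1 (0.76), PDIA4 (-0.22) and CALR (-0.39) were not called, and neither were XBP1 (0.13, adjusted p = 0.71) and ATF6 (0.85, adjusted p = 0.0846, or 0.0159 with the block), transcription factors of the unfolded protein response. The block called 15 of the 28 higher, and without CEM/WT replicate 1 none was (HERPUD1 at 0.0501, DNAJB9 at 0.0545).

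In the immediate early, AP-1 and NF-κB lists 40%, 46.7% and 18.5% of genes were higher, against 6.49% of all genes, and the lists were not tested against each other. JUN, the AP-1 subunit, had 14.76, 15.74 and 15.44 in CEM/WT_BTZ and 10.46 and 11.34 in CEM/WT, and FOS had 8.39, 7.89 and 6.52 in CEM/WT_BTZ and 4.20 and 4.45 in CEM/WT (3.06 ± 0.76, adjusted p = 0.0437, or 0.0529 with the block). In the AP-1 and GADD45 list 7 of 15 genes were higher (median 1.18), with MAFG (2.33), MAFF (2.05) and FOSB (1.95) besides JUN, FOS, ATF3 and GADD45A, and BATF3 lower (-1.68). In the immediate early list 10 of 25 were higher (median 1.13) and the phosphatase DUSP2 was lower. IER5L had 12.01, 12.64 and 11.49 in CEM/WT_BTZ and 7.51 and 8.24 in CEM/WT (4.12 ± 0.47, adjusted p = 0.00542), and EGR1 8.71, 8.37 and 7.90 in CEM/WT_BTZ and 5.63 and 5.28 in CEM/WT (2.78 ± 0.20, adjusted p = 0.00195). The zinc finger factors KLF6 (2.69) and KLF2 (2.03) were called, while KLF4 (-0.11), NR4A1 (-0.07) and JUNB (0.22) were not. Without CEM/WT replicate 1, 2 AP-1 and GADD45 genes and 4 immediate early genes were called higher, with JUN at an adjusted p of 0.059, IER5L at 0.0573 and FOS at 0.329.

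The chemokines of the CXC family stood out in the NF-κB list, in which 5 of 27 genes were higher and 3 lower (median 0.15). These 3 were 11.1% of the list, against 9.01% of all genes, and the block called 4 lower. CXCL8 had 10.60, 9.68 and 9.94 in CEM/WT_BTZ and was not above background in CEM/WT (3.02 and 2.82), a rise of at least 122-fold (adjusted p = 0.00125). CXCL2 had 11.99, 11.69 and 11.52 in CEM/WT_BTZ and 6.78 and 6.19 in CEM/WT (5.25 ± 0.34, adjusted p = 0.00145). CXCL3 changed by 4.0 on the probe used and by 7.05 on another, and as CXCL2 and CXCL3 are near-identical their probes may share RNA. NFKBIZ (2.38) and RELB (1.90) were the other 2 called rises. By contrast NFKBIA, the classical feedback inhibitor, had 12.71, 12.57 and 12.62 in CEM/WT_BTZ and 13.13 and 13.17 in CEM/WT (-0.51 ± 0.17, adjusted p = 0.101, or 0.0342 with the block), and TNFAIP3 (-1.24), TNFAIP2 (-1.16) and lymphotoxin beta (LTB, -2.20) were called lower. LTB had 12.22, 12.61 and 11.02 in CEM/WT_BTZ and 13.94 and 14.23 in CEM/WT. IL6 (-0.27) and TNF (0.15) were not called. With the block 8 of the 27 were called higher, and without CEM/WT replicate 1 there were 2, with CXCL3 at an adjusted p of 0.0501.

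Among BCL2-family genes that promote death, 2 of 14 (14.3%, against 6.49% of all genes) were higher and 2 (14.3%, against 9.01%) lower, with a median of -0.31. PMAIP1 (NOXA), which neutralises MCL1, had 12.78, 12.98 and 12.63 in CEM/WT_BTZ and 9.43 and 9.50 in CEM/WT (log2 fold change 3.29 ± 0.22 SE, 9.78-fold, adjusted p = 0.00145) and was called in every setting. BIK had 9.20, 9.52 and 9.14 in CEM/WT_BTZ and 11.91 and 12.23 in CEM/WT (-2.77 ± 0.26, adjusted p = 0.00354, or 0.0501 without CEM/WT replicate 1), and BID was also lower (-0.96). BAX was called higher (1.67 ± 0.42, adjusted p = 0.0439), but its other 2 probes gave -0.52 and -0.25, and leaving out CEM/WT replicate 1 ended the call (adjusted p = 0.269). BBC3 (PUMA) was not called on its brightest probe, which lay near the top of the scale (19.18, 19.04 and 18.78 in CEM/WT_BTZ, 18.86 and 18.99 in CEM/WT), whereas a dimmer probe had 11.12, 11.13 and 11.51 in CEM/WT_BTZ and 8.39 and 8.62 in CEM/WT (2.77, adjusted p = 0.00237 in the fit over probes). MCL1 (0.47, adjusted p = 0.271) and XIAP (0.43) were not called. A dimmer MCL1 probe gave 1.43 (adjusted p = 0.034 in the fit over probes) and another gave 0.22 (adjusted p = 0.82). BIRC5 (survivin) was lower (-0.74, adjusted p = 0.0401, or 0.11 in the fit on 5 samples alone). BCL2 had 15.39, 14.59 and 13.64 in CEM/WT_BTZ and 13.10 and 13.12 in CEM/WT (1.42 ± 0.63, adjusted p = 0.186, or 0.0172 with the block), with a second probe at -0.92. None of 16 death receptor and caspase genes was called by limma in either direction (4 were higher at an unadjusted p under 0.05, and 5 were called higher with the block). Of 13 p53 targets 1 (7.69%, against 6.49% of all genes), BAX, was higher. AEN and TP53I3 were lower (2 genes, 15.4%, against 9.01% of all genes), and CDKN1A was at 0.45 (adjusted p = 0.19).

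**Figure D4:**
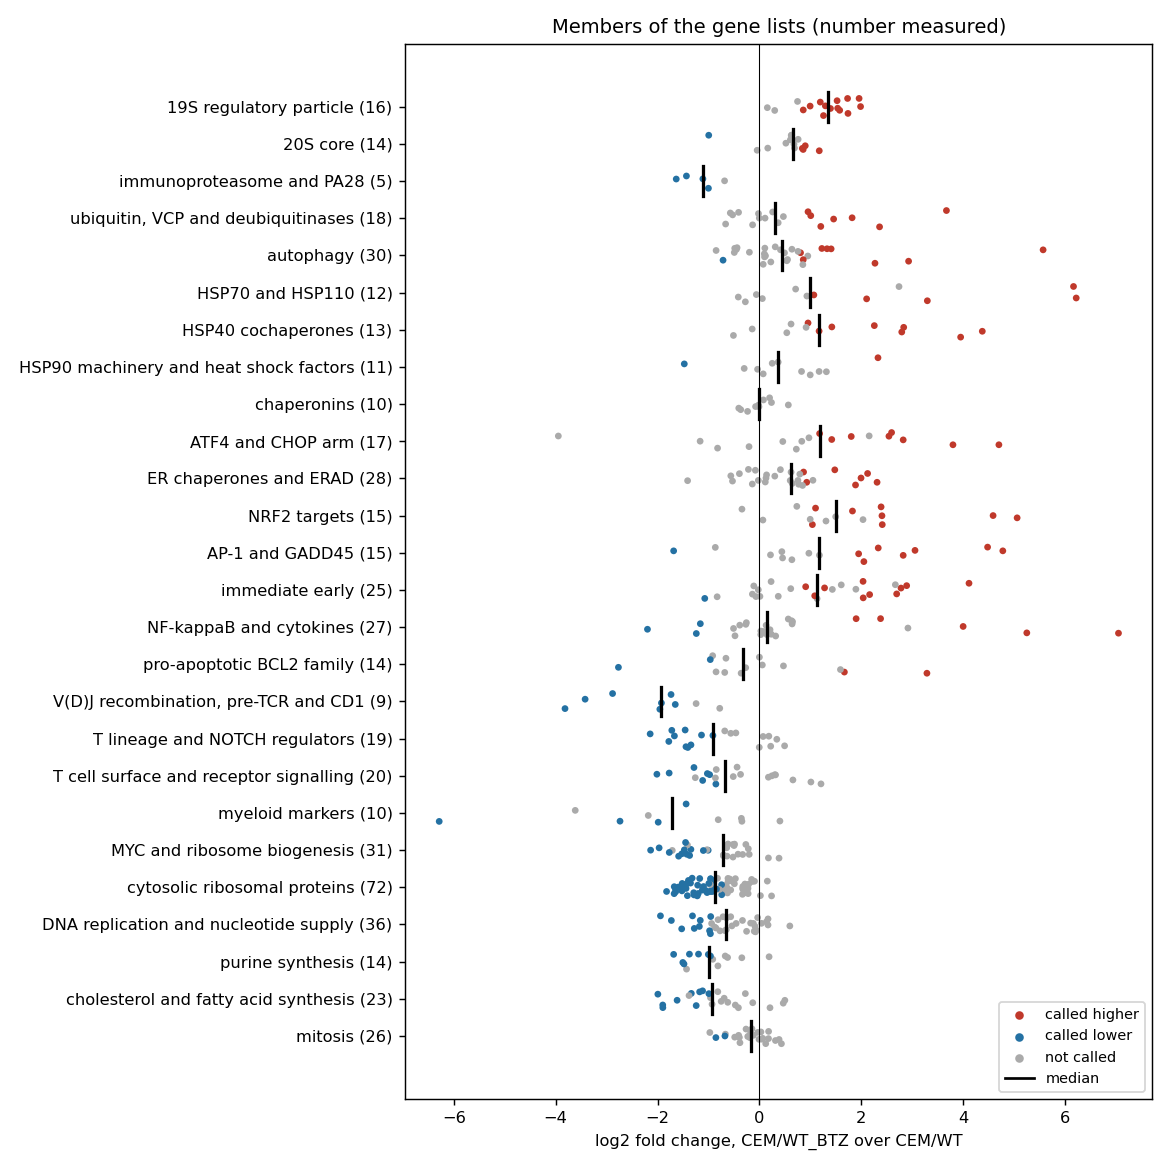
Log2 fold change of CEM/WT_BTZ over CEM/WT for each measured member of 26 gene lists, 1 point per gene, in red where called higher, blue where called lower and grey where not called, with the list median as a black bar. Medians lie right of 0 for the 19S, HSP40, NRF2, ATF4 and immediate early lists and left of 0 for the recombination, T lineage, ribosomal, purine and cholesterol lists.

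Most measured genes of the immature T cell programme were lower. Of 9 genes for V(D)J recombination, the pre-TCR and CD1, 7 (77.8%, against 9.01% of all genes) were lower and none higher (median -1.92). RAG1, a subunit of the recombinase, had 10.66, 10.57 and 9.73 in CEM/WT_BTZ and 14.11 and 13.93 in CEM/WT, 14.1-fold lower, and was called in every setting (log2 fold change -3.82 ± 0.24 SE, adjusted p = 0.00145). CD1E, which helps to load lipids onto the other CD1 proteins, had 4.33, 5.07 and 4.47 in CEM/WT_BTZ and 8.10 and 7.90 in CEM/WT (-3.42 ± 0.25, adjusted p = 0.00209), and CD1A had 7.90, 7.99 and 6.75 in CEM/WT_BTZ and 9.10 and 9.08 in CEM/WT (-1.65 ± 0.29, adjusted p = 0.0153, or 0.0605 without CEM/WT replicate 1). The groups did not overlap in any of the 3 genes, which held for 25% of all genes in that direction. DNTT (-1.24) and PTCRA (-0.78) did not pass the test. RAG1, CD1A and PTCRA are also among the T lymphoblast markers whose summed level was given above. In the value table deposited by the authors the list median was -0.93 and 4 of the 9 were called, and without CEM/WT replicate 1 there were 2.

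Regulators of the T lineage followed, with 10 of 19 (52.6%, against 9.01% of all genes) lower and none higher (median -0.91), though the block called 1 higher. NOTCH1, the receptor that drives T cell commitment, had 9.03, 8.20 and 8.65 in CEM/WT_BTZ and 10.81 and 9.79 in CEM/WT (-1.72 ± 0.37, adjusted p = 0.0296). BCL11B had 11.09, 11.14 and 11.47 in CEM/WT_BTZ and 12.61 and 12.72 in CEM/WT (-1.41), GATA3 8.82, 8.78 and 8.26 in CEM/WT_BTZ and 10.07 and 10.01 in CEM/WT (-1.44), and IKZF1 9.30, 9.44 and 9.29 in CEM/WT_BTZ and 10.83 and 10.80 in CEM/WT (-1.46). Each of these factors was lower in all 3 CEM/WT_BTZ samples than in both CEM/WT samples, as were 25% of all genes. HES1, a NOTCH target, was at -2.15 on its brightest probe and -1.66 on another, but one more probe gave 0.39 and became the brightest in the fit on 5 samples alone (0.35). RUNX1, TCF3 (-0.46) and NOTCH3 (0.49) were not called. Of 20 T cell surface and signalling genes 7 (35%, against 9.01% of all genes) were lower and none higher (median -0.68), though the block called 2 higher. Among those lower were CD27 (-2.01 ± 0.40, adjusted p = 0.0216), CD2 (-1.77 ± 0.28, adjusted p = 0.0111) and LCK (-1.11), whereas CD4 (1.01), IL7R (1.21) and CD3E (-0.51) were not called. The block called 12 of these 20 lower, the fit on 5 samples none, and without CEM/WT replicate 1 no gene of either list was called (NOTCH1 at an adjusted p of 0.249, CD27 at 0.104, CD2 at 0.0777).

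Genes of early myeloid granules, which also gave signal in CEM/WT, were lower too. Which cells gave that signal was not tested. ELANE, neutrophil elastase, had 3.53 (at background), 6.63 and 5.85 in CEM/WT_BTZ and 11.07 and 12.04 in CEM/WT, PRTN3 (proteinase 3) had 6.86, 6.91 and 6.66 in CEM/WT_BTZ and 9.30 and 9.80 in CEM/WT (-2.74 ± 0.52, adjusted p = 0.0198), and AZU1 had 6.14, 6.39 and 5.82 in CEM/WT_BTZ and 7.52 and 8.76 in CEM/WT (-1.99 ± 0.45, adjusted p = 0.0327). RNASE2, an eosinophil ribonuclease, and LILRA2, a myeloid receptor, were not above background in any CEM/WT_BTZ sample and were at least 9.86-fold (adjusted p = 0.025) and 7.89-fold (adjusted p = 0.0102) lower, with 6.20 and 7.34 for RNASE2 and 6.22 and 6.68 for LILRA2 in CEM/WT. CD14 (-0.34) and ITGAM (0.40) were not called. ELANE, PRTN3, AZU1, RNASE2 and LILRA2 were not called without either CEM/WT replicate, at adjusted p of 0.0555 to 0.204. The other large falls were of mixed function. Adenosine deaminase (ADA), which T lymphoblasts need for purine salvage, had 14.68, 14.74 and 15.71 in CEM/WT_BTZ and 19.08 and 18.46 in CEM/WT, near the top of the scale, where the size of a change is uncertain (-3.74 ± 0.43, adjusted p = 0.00575, or 0.0752 without CEM/WT replicate 1), and the chitinase-like CHI3L2 had 12.31, 12.39 and 11.75 in CEM/WT_BTZ and 15.76 and 15.58 in CEM/WT (-3.57 ± 0.20, adjusted p = 0.00122). ASIC1, an acid-sensing channel, had 8.33, 8.47 and 7.98 in CEM/WT_BTZ and 11.79 and 12.17 in CEM/WT (-3.76), and CFAP57, a protein of motile cilia, was at background in all 3 CEM/WT_BTZ samples and at 6.82 and 6.36 in CEM/WT, at least 8.71-fold lower (adjusted p = 0.00122), though its other probe differed by 0.69 the other way (adjusted p = 0.542 in a fit of each probe on its own).

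Many genes of growth were lower. MYC, which drives ribosome production, had 12.11, 12.01 and 12.12 in CEM/WT_BTZ and 14.56 and 13.84 in CEM/WT (-2.14 ± 0.26, adjusted p = 0.00616) on its brightest probe, while 2 dimmer probes gave 0.09 and 0.35. Of 31 genes for MYC and ribosome biogenesis 12 (38.7%, against 9.01% of all genes) were lower and none higher (median -0.71). Fibrillarin (FBL), which methylates ribosomal RNA, had 16.02, 16.19 and 16.72 in CEM/WT_BTZ and 18.42 and 18.18 in CEM/WT (-1.97 ± 0.25, adjusted p = 0.00656), and the nucleolar MYBBP1A had 10.86, 10.92 and 11.18 in CEM/WT_BTZ and 12.74 and 12.81 in CEM/WT (-1.77 ± 0.18, adjusted p = 0.00413). In these 3 genes no sample of CEM/WT_BTZ reached the lower CEM/WT sample, which held for 25% of all genes. NOP58 (0.39) and GRWD1 (0.18) were not called. With the block 21 of the 31 were called lower, and without CEM/WT replicate 1 none was (MYC at an adjusted p of 0.069, FBL at 0.0817, MYBBP1A at 0.0653). The E-box, CACGTG on both strands, occurred in 7.26% of all windows, in 12 of 32 windows of this list and in 5 of 14 of the AP-1 and GADD45 list. FBL (chr19:39846330-39846629 on the minus strand) is shown with the E-box in capitals, which begins at base 7 after the start site.
FBL: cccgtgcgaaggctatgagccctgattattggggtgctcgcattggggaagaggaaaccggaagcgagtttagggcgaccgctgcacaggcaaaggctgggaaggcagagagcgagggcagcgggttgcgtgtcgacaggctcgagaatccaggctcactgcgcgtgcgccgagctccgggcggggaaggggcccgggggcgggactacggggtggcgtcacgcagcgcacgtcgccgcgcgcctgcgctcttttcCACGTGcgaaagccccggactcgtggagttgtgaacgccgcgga

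Of 72 cytosolic ribosomal protein genes 37 (51.4%) were lower and none higher, with a median of -0.87. RPS26 had 16.39, 16.50 and 16.75 in CEM/WT_BTZ and 18.29 and 18.15 in CEM/WT (-1.67 ± 0.20, adjusted p = 0.00616). The median of the list was -1.11, -1.0 and -0.57 in the 3 CEM/WT_BTZ samples, the last being the Cy5 sample. These are among the brightest genes, with a median level of 17.2. Of the 287 genes of all kinds at a level over 16, 24% were called lower and 10.8% higher (median -0.18). That set includes ribosomal protein genes of this list, so its shares are not those of the other bright genes. Processing moved the size of the change, since in the authors' value table the list median was -0.14 with 4 genes called lower. Without CEM/WT replicate 1 no gene of the list was called lower (RPS26 at an adjusted p of 0.0796) and without replicate 2 there were 5. Ribosomal protein genes have many near-identical pseudogene copies, so probes may read more than 1 transcript. The 76 mitochondrial ribosomal protein genes had 11 lower (14.5%) and 1, MRPL18, higher (1.32%), with a median of -0.41. The 35 complex I genes had 8 lower (22.9%) and none higher (median -0.47). Of all genes 9.01% were lower and 6.49% higher. With the block these became 40 and 24 lower, and 3 mitochondrial ribosomal protein genes were higher.

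Genes for DNA replication, purines and lipids were lower in part. Of 36 genes of DNA replication 10 (27.8%, against 9.01% of all genes) were lower and none higher (median -0.65), though the block called 1 higher. The falls were led by thymidine kinase TK1, with 14.31, 14.54 and 14.79 in CEM/WT_BTZ and 16.46 and 16.58 in CEM/WT (-1.94 ± 0.20, adjusted p = 0.00413), and RRM2, a subunit of ribonucleotide reductase (-1.73 ± 0.28, adjusted p = 0.0128). A dimmer RRM2 probe gave -0.50 (adjusted p = 0.522 in a fit of each probe on its own). MCM7 (-1.31), MCM3 (-1.18) and TYMS (-1.16) were called, whereas POLA1 (-0.56), MCM5 (-0.12) and RRM1 (-0.10) were not. Of 26 mitotic genes 2 (7.69%, below the 9.01% of all genes) were lower, MKI67 and CENPF, and the block called 6. Neither gene was called without either CEM/WT replicate (adjusted p = 0.112 to 0.225). The list median was -0.16, or 0.09 without CEM/WT replicate 1, and CCNB1 (0.31) and TOP2A (-0.18) were not called. Of 14 purine synthesis genes 7 (50%) were lower (median -0.98), with PFAS at 10.94, 10.96 and 11.22 in CEM/WT_BTZ and 12.78 and 12.72 in CEM/WT (-1.68 ± 0.18, adjusted p = 0.00488). Of 23 cholesterol and fatty acid genes 9 (39.1%) were lower and none higher (median -0.93), though the block called 1 higher. SREBF1, the regulator of lipid synthesis, had 13.52, 13.64 and 14.20 in CEM/WT_BTZ and 15.83 and 15.61 in CEM/WT (-1.90 ± 0.24, adjusted p = 0.00651), and LSS and ACACA were at -1.90 and -1.99. Other probes gave smaller falls for SREBF1 (-0.995) and ACACA (-0.35 and -0.73), while those of LSS gave -1.74 to -2.42. All samples of CEM/WT_BTZ lay below both CEM/WT samples for TK1, PFAS and SREBF1, as they did in 25% of all genes. Of 11 CDK inhibitors and G1 cyclins 3 (27.3%) were lower and none higher (2 with the block), although 6 had positive changes and the median was 0.45. These 3 were the CDK inhibitor CDKN2D (-1.30) and the cyclins CCND3 (-1.60 ± 0.22, adjusted p = 0.00803, or 0.0902 without CEM/WT replicate 1) and CCNE1 (-1.32 ± 0.19, adjusted p = 0.00908, or 0.0718). With the block 21 replication, 12 purine and 16 lipid genes were called lower, and without CEM/WT replicate 1 none was (TK1 at an adjusted p of 0.0629, PFAS at 0.0718, SREBF1 at 0.0804).

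Sugar metabolism and interferon genes were mixed. Of 31 glycolysis and hypoxia genes 3 (9.68%, against 6.49% of all genes) were higher and 6 (19.4%, against 9.01%) lower (median -0.14). Lactate dehydrogenase LDHA had 14.16, 13.89 and 14.50 in CEM/WT_BTZ and 16.28 and 16.26 in CEM/WT (-2.03 ± 0.22, adjusted p = 0.00467). The glucose transporter SLC2A3 had 7.99, 7.65 and 7.46 in CEM/WT_BTZ and 6.05 and 5.27 in CEM/WT (1.96 ± 0.23, adjusted p = 0.0058). Of 21 interferon-stimulated genes 4 (19%) were higher and 3 (14.3%) lower (median 0.27). IFI44 had 11.80, 11.65 and 10.85 in CEM/WT_BTZ and 9.49 and 9.43 in CEM/WT (1.89 ± 0.23, adjusted p = 0.00632), but ISG15, a ubiquitin-like modifier, had 12.78, 13.49 and 12.46 in CEM/WT_BTZ and 14.14 and 14.79 in CEM/WT (-1.56 ± 0.40, adjusted p = 0.0451). IFIT2 had 9.50, 9.35 and 7.07 in CEM/WT_BTZ and 6.02 and 6.22 in CEM/WT, where replicate 3 of CEM/WT_BTZ lay near CEM/WT, and it was not called. Among 68 histone genes 2 (2.94%) were higher and 6 (8.82%) lower, no more often than among all genes (6.49% and 9.01%). H4C3 had 16.32, 16.74 and 16.06 in CEM/WT_BTZ and 19.27 and 19.08 in CEM/WT, likewise near the top of the scale (-2.88 ± 0.23, adjusted p = 0.00229), and H4C1 had 11.62, 12.35 and 11.08 in CEM/WT_BTZ and 7.26 and 8.56 in CEM/WT (3.80 ± 0.58, adjusted p = 0.0107). These H4 genes encode the same protein, and their probes may read more than 1 of them. Without CEM/WT replicate 1 the adjusted p was 0.0679 for LDHA, 0.0516 for SLC2A3, 0.0792 for IFI44, 0.121 for ISG15 and 0.112 for H4C1. With the block 8 and 4 interferon-stimulated genes were called higher and lower, as were 5 and 10 glycolysis and hypoxia genes and 10 and 16 histone genes.

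Of 136 called genes among the 153 chosen by rule, 33 were called under all 19 other settings, 25 of them higher and 8 lower in CEM/WT_BTZ. A further 5 (CXCL8, CBR3 and APOBEC3A higher, TSPAN11 and CFAP57 lower) were called under the 18 in which they could be fitted, since they were not above background in all 5 samples, and 40 were called without each replicate of CEM/WT_BTZ, CEM/BTZ7 and CEM/WT in turn. The rises included genes of chaperones (HSPA1A, HSPA6, HSPH1, DNAJB1, BAG3), autophagy and ubiquitin handling (GABARAPL1, MAP1LC3B, ZFAND2A, ZFAND5), oxidative stress (HMOX1, SLC7A11, PIR), stress transcription factors (DDIT3, ATF3, EGR1) and the chemokine CXCL2. PSMD12 was the 1 proteasome gene among them. The rule took genes from each list, so the kinds of gene named here follow in part from that choice. RAG1, CD1E, CHI3L2, ASIC1 and H4C3 were among the 8 falls. The common reference genes were not called, with TBP at 10.87, 10.68 and 10.68 in CEM/WT_BTZ and 10.51 and 10.32 in CEM/WT (0.31, adjusted p = 0.287), GAPDH at -0.88 (adjusted p = 0.0852) and ACTB at -0.74 (adjusted p = 0.0594, or 0.0241 with the block).

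**Figure D5:**
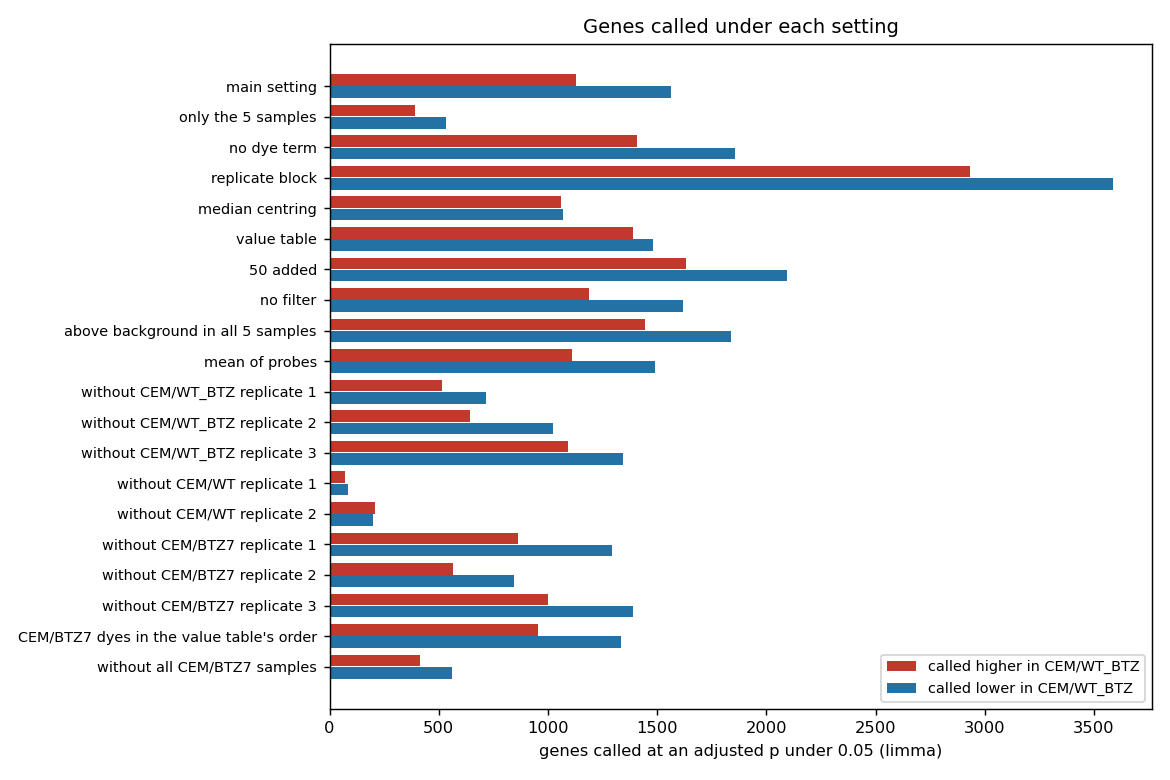
Number of genes called at an adjusted p under 0.05 (horizontal axis) under each setting (vertical axis), in red for genes higher and in blue for genes lower in CEM/WT_BTZ. Counts fell most where a CEM/WT replicate was left out and were highest with the replicate number as a block.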

How the data were processed

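The comparison used the RNA of 5 samples, 3 of CEM/WT_BTZ and 2 of CEM/WT. The deposited intensities are the processed spot signal that the authors took from Agilent Feature Extraction (its version is not stated in the labels), with no normalization between arrays. A second deposited table (here the value table) holds log2 values that the authors obtained with limma, by correcting background, normalizing arrays by loess and then between them by quantiles; it served as an alternative. Groups and dyes came from the titles and labels. The sources used here do not tell which 2 samples were on one array.

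Intensities of 45015 spots were quantile-normalized over 11 samples before log2 was taken, and spots of 1 probe were averaged (41000 probes). A probe was kept where it exceeded the 95th percentile of the 153 negative controls in at least 2 samples (37422 probes), and the brightest kept probe stood for each gene. Probe symbols came from gene identifiers (29203 probes) or accessions (11), 30 were kept as deposited, and 11672 probes without a symbol and 84 with several were left out. limma 3.58.1 in R 4.3.3 fitted 6 groups plus dye with 4 residual and 2.4 prior degrees of freedom. The p-values were adjusted by Benjamini-Hochberg over 17372 genes. The dye term was called for 0 genes (743 at an unadjusted p under 0.05). An exact permutation test of 3 against 2 samples cannot go below p = 0.1, so single values got none. "At least" folds were computed against the background of each array. The precision is limited by the number of arrays. The script was tested on simulated data.

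Same-numbered samples deviated together from their group means, with correlations of 0.387 and 0.346 between CEM/WT_BTZ and CEM/WT and 0.295 to 0.534 for the pairs with CEM/BTZ7. The replicate number was therefore taken to pair them in the block setting only, though what a number means is not explained. The main fit, of groups and dye, held no term for it. The CEM/BTZ7 columns 1, 2 and 3 of intensities were closest to columns 2, 3 and 1 of the value table (rank correlations of 0.9919 to 0.9947), whereas the 5 samples compared matched their own names (0.9805 to 0.9909). The members and the 47 gene lists were chosen with earlier results of these data known. Genes named were the 20 largest called rises and falls with separate groups, the 3 largest called changes of each list and a fixed set of names, 1 of which (HSF2) had no kept probe; further list members are given as examples and were chosen after their values were seen. Alternatives were the samples in the fit, the dye term, the block, the normalization, the value table, 50 added to each intensity, the filter, the mean of probes and leaving out each replicate. Windows of 300 bases per start site came from RefSeq and held 768 of the 925 list genes. Figures were drawn with matplotlib.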

Additional observations from a re-analysis of the deposited data

How the results depend on the processing

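Of the 20 settings, 2 were chosen after seeing the data: the CEM/BTZ7 dyes in the value table's order (2288 genes called) and a fit without all CEM/BTZ7 samples, which called 974 genes, 412 higher and 562 lower past 2-fold. The 5 samples alone called 923 genes, 390 higher and 533 lower past 2-fold, with fewer samples behind the spread. With the replicate number as a block, which the pairing allowed, 6518 genes were called, 1282 of them higher past 2-fold, and rises made up 45% of the calls; 2667 of the 2692 genes were among them. Leaving out 1 replicate gave 153 to 2434 genes (past 2-fold, 70 to 943 higher and 83 to 1197 lower), with 38.7% to 51.6% rises. Rises were 41.9% of the calls in the setting used, 49.8% with median centring, 48.4% in the value table, 43.8% with 50 added and 44% for genes above background in all 5 samples. Of all 2692 called genes, 2677 kept their sign with the mean of probes and 2686 in the value table. Among the called genes chosen by rule, changes of sign came from SQSTM1 (-0.46 and -0.42 without CEM/WT_BTZ replicates 2 and 3, up to 2.97 without CEM/WT replicate 2), HES1 (0.35 in the 5 samples alone and 0.36 without all CEM/BTZ7 samples), CCDC80 (-1.27) and MIR210HG (0.26), both for genes above background in all 5 samples, where another probe of the gene became the brightest, and from TP53I3 (0.0253 in the value table), where the cause was not tested. HSPA8, BBC3, HSF1 and NFE2L1, which were not called, also changed sign when 1 replicate was left out. The block changed the calls of FOS, ATF6, PSMB1, PSMB10, BCL2, NFKBIA and ACTB and of no other named gene. Genes at background have only a bound, and probes near the top of the scale (BBC3, NFE2L1) moved less than dimmer probes of the same gene.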
